A study of Mus musculus with 27 samples.

Results

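The type I interferon-stimulated antiviral genes described here are 41 mouse genes chosen by name, by symbols matched to the Ensembl identifiers of a deposited count table with 38124 genes. All 41 were found, and all 41 were among the 13599 genes that passed a filter on low counts. They were followed in 27 RNA libraries of sorted alveolar macrophages, the phagocytes of the lung's air spaces, from C57B/6 mice aged 8 to 14 weeks. Resident macrophages (CD11c+ CD11b-) came from untreated mice, called day 0, and from days 3, 6, 9 and 12 after lipopolysaccharide (LPS), and recruited macrophages (CD11c- CD11b+) came from the same 4 days after LPS. LPS, a bacterial cell wall component that injures the lung, was instilled into the trachea, at 20 ng in 50 µL of buffered saline per the labels. Each of the 9 groups had 3 libraries. There were no untreated recruited macrophages and no mice given saline alone among these groups, so day 0 differs from the later days by the instillation as well as by LPS. Whether each library stands for its own mouse or for a pool is not in the labels, and the p-values measure the spread between these samples only. The question, from the series title, is how resident and recruited macrophages are programmed during acute lung injury.

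Type I interferons are secreted proteins that bind a receptor made of Ifnar1 and Ifnar2 on almost every cell. The receptor's kinases activate Stat2, which joins Irf9 and enters the nucleus in a complex that binds the interferon-stimulated response element in front of many genes. Their products detect viral nucleic acid, degrade or edit RNA, block translation, alter membranes at virus entry and exit, and raise or brake the response itself. In macrophages LPS also reaches this pathway, through Toll-like receptor 4 and the interferon it induces.

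The response element core, GAAA, any 2 bases and GAAA again, on either strand, was looked for in RefSeq promoter windows of build GRCm38.p6, each reaching from 250 bases before to 50 bases after a start site. A window was matched for 31 of the 41 genes, and none was matched for Usp18, Parp14, Parp9, Rtp4, Ifi204, Dhx58, Mx1, Ly6e, Zbp1 and Oas2. The core was found in 16 of the 31 genes (51.6%), against 1079 of all 27025 genes with a window (3.99%). Neighbouring matches can overlap. The other common interferon element, the GAS core TTCNNNGAA, was found in 9 of the 31 (29.0%), against 9.55% of all genes. The 160 bases before the start are shown, 5′ to 3′ on the gene's strand, for 6 genes that hold the core in that stretch and for Irf7, which does not, because these genes span the roles and recur in the results. Capitals mark the core matches, on either strand.
Isg15, chr4:156200819-156200978, minus strand: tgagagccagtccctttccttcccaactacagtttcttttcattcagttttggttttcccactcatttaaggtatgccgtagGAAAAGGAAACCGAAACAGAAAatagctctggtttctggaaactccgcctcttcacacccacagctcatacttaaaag
Ifit1, chr19:34640729-34640888, plus strand: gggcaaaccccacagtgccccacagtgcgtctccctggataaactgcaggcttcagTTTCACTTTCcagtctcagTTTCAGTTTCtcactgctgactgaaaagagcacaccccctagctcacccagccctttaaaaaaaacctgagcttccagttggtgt
Ifit3, chr19:34583369-34583528, plus strand: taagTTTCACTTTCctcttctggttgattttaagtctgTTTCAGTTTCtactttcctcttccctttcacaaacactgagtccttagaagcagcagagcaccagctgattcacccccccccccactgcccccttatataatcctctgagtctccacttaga
Rsad2, chr12:26456453-26456612, minus strand: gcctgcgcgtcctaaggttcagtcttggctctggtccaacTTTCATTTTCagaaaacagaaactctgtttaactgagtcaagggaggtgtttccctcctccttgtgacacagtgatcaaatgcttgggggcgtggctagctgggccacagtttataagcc
Oas1a, chr5:120907526-120907685, minus strand: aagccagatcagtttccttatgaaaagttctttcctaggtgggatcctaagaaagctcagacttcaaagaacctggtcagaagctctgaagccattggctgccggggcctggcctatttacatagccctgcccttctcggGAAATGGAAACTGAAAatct
Ifitm2, chr7:140955962-140956121, minus strand: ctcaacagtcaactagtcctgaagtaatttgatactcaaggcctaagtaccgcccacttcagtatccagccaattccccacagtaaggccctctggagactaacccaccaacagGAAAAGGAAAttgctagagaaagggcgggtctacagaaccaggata
Irf7, chr7:141266425-141266584, minus strand: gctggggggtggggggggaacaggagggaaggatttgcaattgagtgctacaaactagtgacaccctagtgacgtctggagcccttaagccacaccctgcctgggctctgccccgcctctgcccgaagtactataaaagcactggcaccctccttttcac

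In Isg15, 3 overlapping matches began 78, 72 and 66 bases before the start site, printed as positions -78, -72 and -66 in the plot of match positions. Ifit1 had matches on the opposite strand at -104 and -85, and Ifit3 at -156 and -122. Oas1a and Oas1g, which are close copies of each other, had paired matches within 20 bases of the start. Irf7 had no match in its window, and neither had 14 others, among them Ifi44, Oasl1, Oasl2, Ifit2 and Cmpk2. A match is a description of letters and not a shown binding site.

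**Figure D1:**
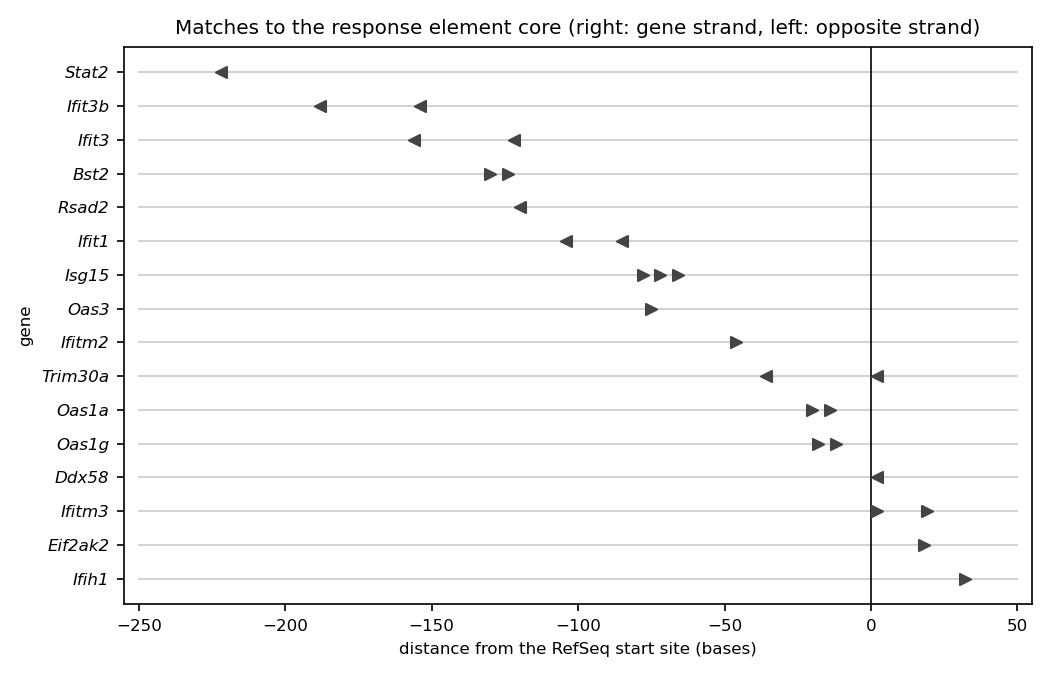
Position of each response element core match in the 16 genes that held one, by distance in bases of the match's first base from the RefSeq start site (0). Arrowheads point right for the gene's strand and left for the opposite strand, grey lines span the window searched, and the 2 matches of Trim30a come from different start sites, each plotted from its own.

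Several members are neighbours in the genome, here in GRCm38 coordinates from GENCODE release M21. Ifit1, Ifit2, Ifit3 and Ifit3b, of which Ifit1 binds viral RNA ends, lie within chr19:34550694-34650009. Oas1a, Oas1g, Oas2 and Oas3, enzymes that make the 2-5A messenger for RNase L, lie within chr5:120730333-120907521, with Oasl1 and Oasl2 at chr5:114896936-114937915. Rsad2 and Cmpk2 lie side by side at chr12:26442746-26479837, Ifitm2 and Ifitm3 at chr7:140954837-141010770, and Parp14, Dtx3l and Parp9 at chr16:35832874-35972605. Of the 100-base windows of their transcripts, 40.9% of Oas1a and 31.2% of Oas1g are shared between both genes, as are 31.7% of Ifit3 and 27.4% of Ifit3b, and 34.9% of Ifitm2 is shared with pseudogene models. Values of these genes are therefore uncertain as to which copy the reads came from.

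Levels are given as CPM, counts per 1000000 counts of a library, with library totals adjusted by edgeR's TMM factors, which sets libraries of unequal depth on one scale. Library totals were 11093216 to 18299674 counts (median 14859352). Reads outside any gene were 6.77% to 26.5% of reads, the highest in recruited day 6 replicate 2. The 12 resident markers summed to 14980 to 32650 CPM in the resident groups and to 1783 to 9290 CPM in the recruited groups. Genes of recruited monocytes and macrophages summed to 1234 to 1999 CPM in untreated cells and to 9288 to 13070 CPM in recruited cells of day 3, and in resident cells to 2763 to 3735 CPM on day 3, 8350 to 8530 CPM on day 6, 4533 to 11730 CPM on day 9 and 4559 to 10300 CPM on day 12.

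All 41 genes had their highest group mean in recruited macrophages of day 3. Summed over the 41, the level was 1902.4 ± 52.2 CPM (SD, n = 3) in untreated resident cells, 4251.6 ± 551.2 CPM in resident cells of day 3 and 11528.0 ± 1558.3 CPM in recruited cells of day 3. By day 6 it was 2899.5 ± 807.1 CPM in resident and 2977.0 ± 519.5 CPM in recruited cells, and by day 12 it was 2095.9 ± 40.6 and 2392.5 ± 271.2 CPM. In bulk RNA such a difference cannot be told apart from a change in the number of responding cells in the sample. Compared per length, as CPM per kilobase of gene model, the highest levels in recruited cells of day 3 were those of Ifitm3 (688 ± 105, SD, n = 3), a membrane protein that blocks virus fusion, Ly6e (438 ± 26.1), a surface protein that acts at virus entry, and Isg15 (299 ± 60.7), a ubiquitin-like modifier. Ifi44 (3.51 ± 0.557) was the lowest on that scale. For 40 of the 41 genes the 3 recruited day 3 libraries lay above every library of the next highest group. The exception was Ifitm2, whose next highest group was recruited day 6. How many of all tested genes peak there, or lie apart in this way, was not counted, so these counts have no background.

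**Figure D2:**
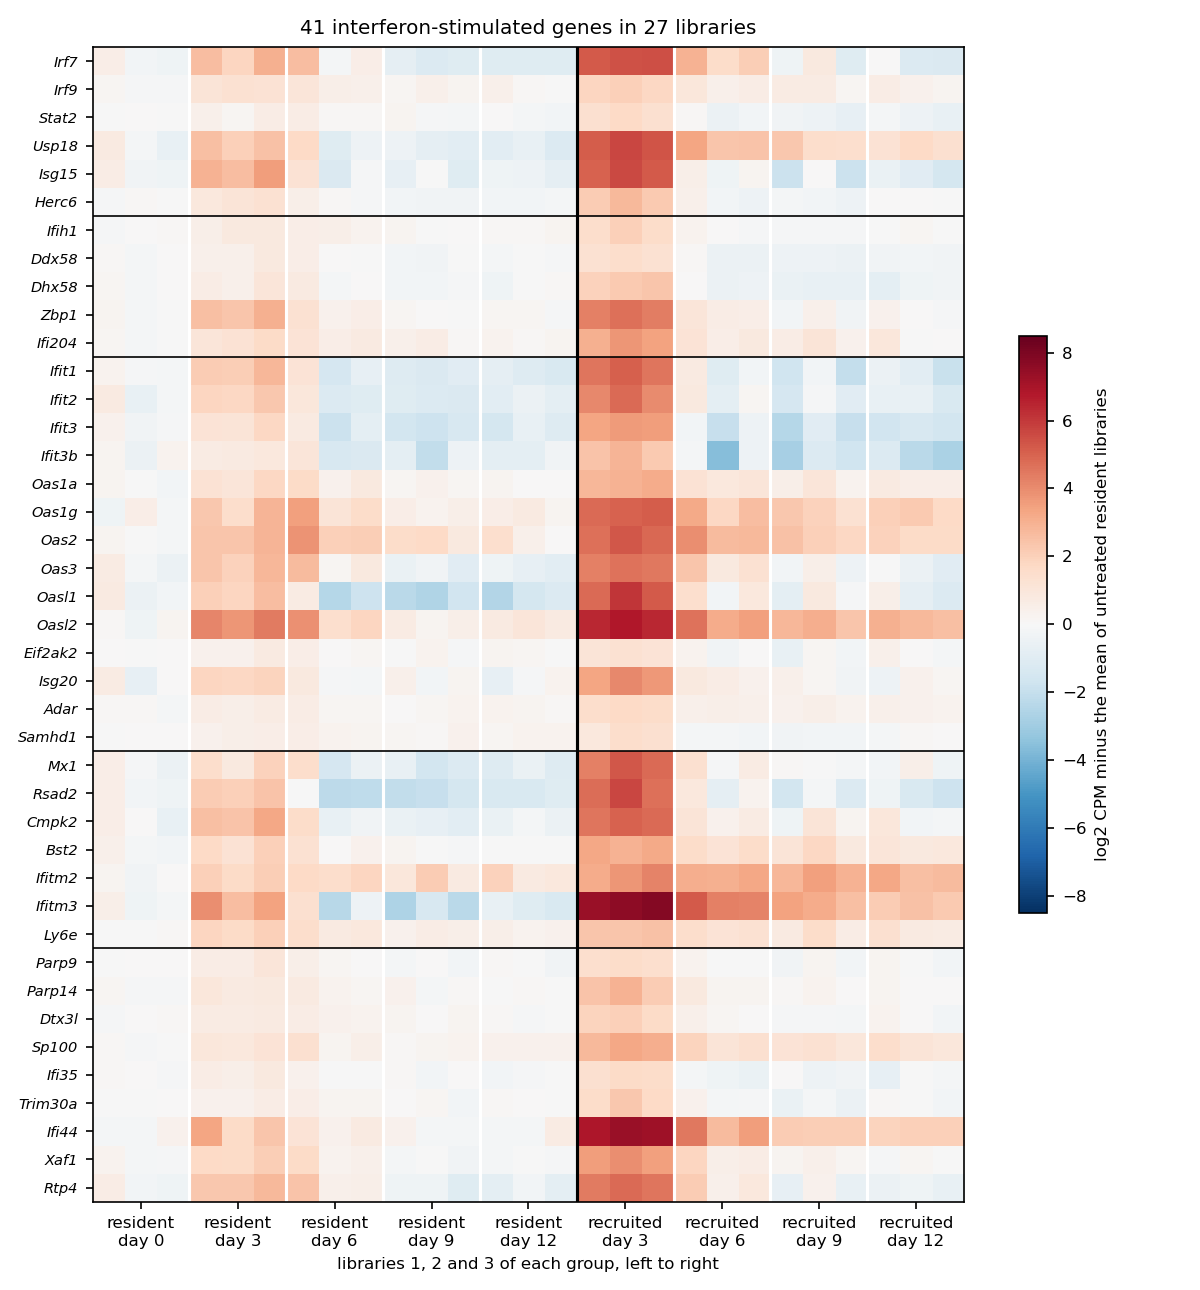
Level of each of the 41 genes (top to bottom) in each of the 27 libraries (left to right, 3 per group), as log2 CPM minus the mean of the 3 untreated resident libraries, with black lines between roles and between populations and white lines between groups. The recruited day 3 columns are the deepest red, and within day 6 the column of library 1 is redder than the others for most genes in both populations.

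On day 3, all 41 genes were higher in recruited than in resident macrophages, against 23.2% of all tested genes (edgeR's quasi-likelihood test, Benjamini-Hochberg adjusted p under 0.05, here "called"). The differences ran from 0.59 to 4.69 on the log2 scale, with a median of 1.86, beside a median of 0.05 over all tested genes. All 41 had no overlap between the 3 recruited and the 3 resident libraries, against 28.6% of all genes. Within each of 3 runs of library numbers, which the columns of a second deposited table carry, the recruited library was the higher for 41 of 41 genes. The lack of overlap fixes that count in advance, so it is no separate check. Without resident replicate 1 or without resident replicate 2, 39 remained called, and those lost were Ifit3b and Ly6e (adjusted p = 0.0568 and 0.0638 without the first). Without recruited replicate 2, Ifit3b was lost (0.0682), and without recruited replicate 3, Ly6e (0.0735).

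Among the 6 signal transducers and regulators, Irf7, the transcription factor that amplifies interferon production, measured 639, 741 and 760 CPM in the recruited libraries of day 3. It measured 106, 61.4 and 138 CPM in the resident libraries. Every recruited library lay above every resident one, and the log2 difference was 2.81 ± 0.59 (SE, n = 3 per group; adjusted p = 0.000552, edgeR). Usp18, the protease that strips Isg15 from proteins and dampens the receptor, measured 78.3, 113 and 87 CPM in recruited and 12.6, 8.93 and 11.9 CPM in resident libraries. The groups did not overlap, with a log2 difference of 3.05 ± 0.45 (adjusted p = 1.21e-05, edgeR). Stat2 and Irf9, factors of the complex that binds the response element, had smaller differences. Stat2 measured 280, 348 and 281 CPM in recruited against 149, 120 and 164 CPM in resident libraries (log2 difference 1.07 ± 0.17), and Irf9 123, 140 and 117 against 73.1, 82.4 and 79.3 CPM (0.70 ± 0.17). Both were apart in every library. Isg15 differed by 2.22 ± 0.46 and Herc6, the mouse ligase that attaches Isg15, by 1.31 ± 0.18.

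Of the 5 sensors, Ifi204, a DNA-binding protein of the nucleus, measured 206, 346 and 279 CPM in recruited and 52.3, 60.6 and 81.2 CPM in resident libraries of day 3. The lowest recruited library stood above the highest resident one, and the log2 difference was 2.10 ± 0.26 (adjusted p = 1.08e-06, edgeR). Zbp1, a sensor of left-handed nucleic acid linked to cell death, measured 360, 480 and 375 against 106, 93.3 and 149 CPM, again without overlap (1.80 ± 0.23). The cytosolic RNA helicases differed by less: Dhx58 by 1.49 ± 0.20, Ifih1 by 1.00 ± 0.13 and Ddx58 by 0.81 ± 0.15.

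The 14 effectors on RNA, translation and nucleotides differed by a median of 2.11. Oasl1, a protein related to the 2-5A synthetases that restrains Irf7 translation, measured 139, 335 and 189 CPM in recruited against 20.8, 17.5 and 30.7 CPM in resident libraries. Recruited replicate 2 was the highest, no library overlapped, and the log2 difference was 3.26 ± 0.62 (adjusted p = 0.000223, edgeR). Oas1g measured 47.7, 55.7 and 61.3 against 8.01, 4.59 and 12.2 CPM, without overlap (2.72 ± 0.47). The other members ranged from 0.69 ± 0.19 for Eif2ak2, the kinase that halts translation on double-stranded RNA, to 2.43 ± 0.47 for Oasl2. Between them lay Ifit1 (2.33 ± 0.49), Ifit2 (2.39 ± 0.49), Ifit3 (2.15 ± 0.44), Ifit3b (1.83 ± 0.61), Oas1a (1.61 ± 0.24), Oas2, Oas3 (2.06 ± 0.50), the exonuclease Isg20 (1.91 ± 0.31), the RNA-editing enzyme Adar (0.95 ± 0.11) and Samhd1 (0.79 ± 0.13), which depletes deoxynucleotides.

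The 7 members grouped here under membranes and virus entry or exit, a loose label that does not describe Cmpk2, held the second largest difference of all. Ifitm3 measured 391, 477 and 531 CPM in recruited and 36.2, 14.6 and 25.1 CPM in resident libraries of day 3. No library overlapped, and the log2 difference was 4.20 ± 0.50 (adjusted p = 8.68e-07, edgeR). Mx1, a GTPase that traps viral ribonucleoprotein and whose gene is known to be defective in this strain, measured 92.7, 191 and 138 against 13.5, 8.34 and 18.3 CPM (3.38 ± 0.52). It did not overlap either. Rsad2, which makes a chain-terminating nucleotide, differed by 2.91 ± 0.49, its neighbour Cmpk2, a mitochondrial nucleotide kinase, by 2.00 ± 0.43, Ifitm2 by 1.86 ± 0.36, Bst2, which tethers budding virus to the cell, by 1.49 ± 0.27 and Ly6e by 0.59 ± 0.21.

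Among the 9 remaining genes, Ifi44, a cytosolic protein with a GTP-binding fold, measured 17.7, 24.3 and 22.6 CPM in recruited and 1.44, 0.334 and 0.651 CPM in resident libraries, which held 22, 4 and 11 counts. The libraries were far apart, with a log2 difference of 4.69 ± 0.47 (adjusted p = 3.36e-08, edgeR), and 5.38 without resident replicate 1. Rtp4, a chaperone of membrane receptors, measured 112, 153 and 128 against 26.6, 26.2 and 36.8 CPM (2.13 ± 0.46). The ADP-ribosyl transferase family members Parp14 (1.68 ± 0.19) and Parp9 (0.70 ± 0.15), the ubiquitin ligase Dtx3l that pairs with Parp9 (1.12 ± 0.13), the nuclear body protein Sp100 (2.01 ± 0.22), Trim30a (1.44 ± 0.17), the apoptosis-linked Xaf1 (1.85 ± 0.30) and Ifi35 (0.86 ± 0.16) completed the list.

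**Figure D3:**
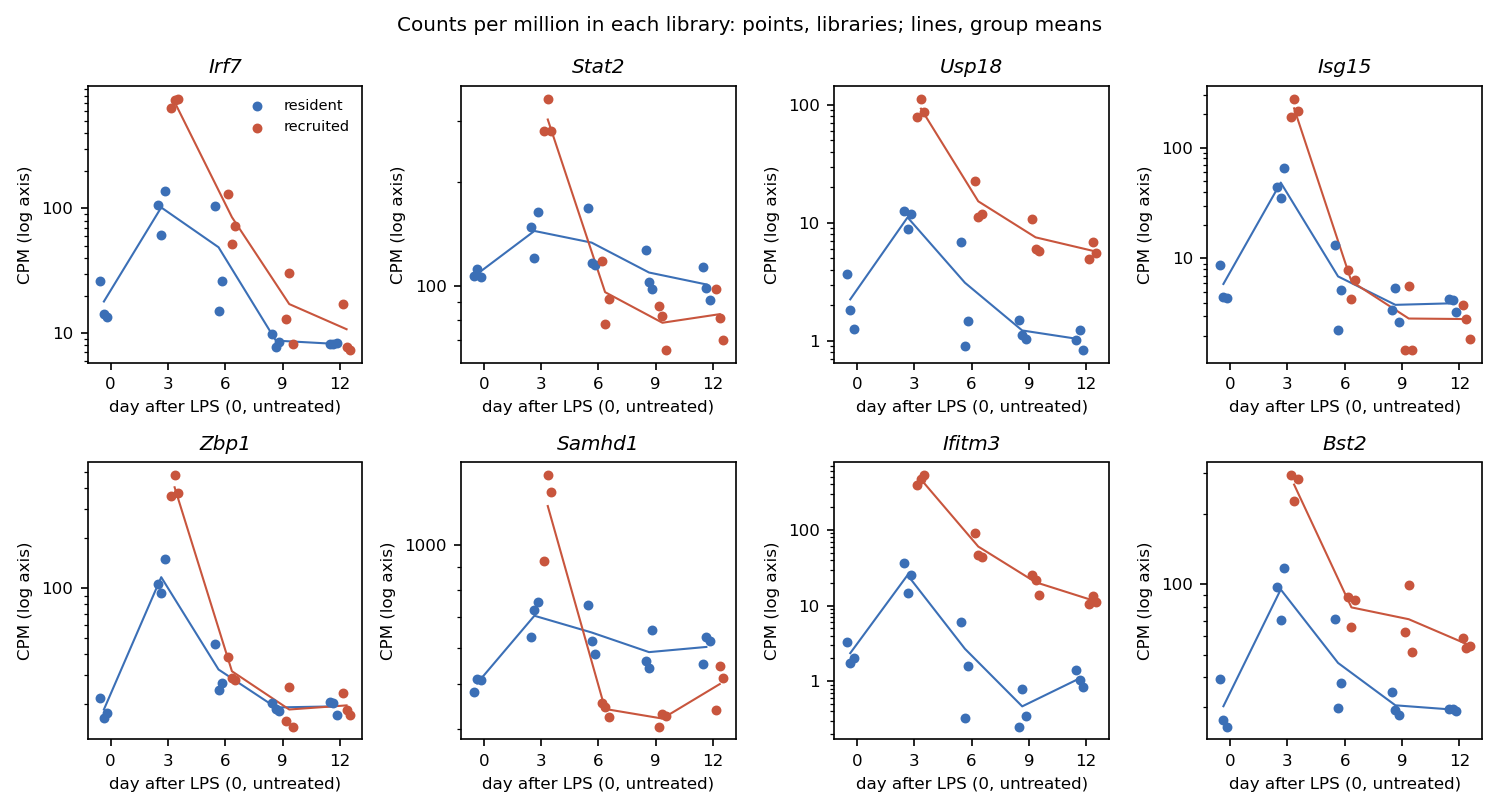
CPM of 8 members in each library (points, log axes) by day, in resident (blue) and recruited (red) macrophages, with lines through the group means. Recruited cells of day 3 stand highest in all 8 panels, the populations stay apart on every day for Usp18 and Ifitm3, and for Stat2 and Samhd1 the recruited points of days 6 and 9 lie at or below the resident ones, apart from 1 Stat2 point of day 6.

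In resident macrophages, 36 of the 41 genes rose from untreated to day 3 and none fell, against 13.3% of all tested genes higher and 10.5% lower. All 41 were positive, with a median log2 change of 1.66, and all 41 had no overlap between the day 3 and the untreated libraries, against 24% of all genes. The 5 that did not pass the test were Stat2, Trim30a, Eif2ak2, Ifit3b and Mx1, at 0.41 to 1.45 on the log2 scale. Within each of the 3 runs of library numbers shared with day 0, the day 3 library was higher for 41 of 41 genes. This too follows from the lack of overlap and is no separate check. On day 3 the 10 markers of recruited monocytes and macrophages were also higher in resident than in untreated cells, with 10 of 10 positive and 5 called (median 2.86). On days 6, 9 and 12 their medians against untreated cells were 2.23, 1.76 and 1.84, beside 0.43, -0.03 and -0.08 for the members. The part of such cells in the rise of the members was not tested.

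Oasl2 measured 5.78, 4.21 and 6.29 CPM in the untreated libraries and 95.3, 73.8 and 119 CPM on day 3. Every day 3 library lay far above the untreated ones, and the log2 change was 4.14 ± 0.53 (SE, n = 3 per group; adjusted p = 1.46e-05, edgeR). Ifitm3 rose from 3.28, 1.76 and 2.01 CPM to 36.2, 14.6 and 25.1 CPM, without overlap (3.42 ± 0.55, adjusted p = 0.000158, edgeR). Ifi44 was at 0, 0 and 1 count in the untreated libraries and at 22, 4 and 11 counts on day 3, a ratio of 37.3 with an exact 95% counting interval of 6.3 to 1510, which covers counting error only. Irf7 rose from 26, 14.3 and 13.5 CPM (2.50 ± 0.59) and Irf9 from 38.8, 32 and 31.9 CPM (1.19 ± 0.17) to their day 3 levels above, both without overlap. Stat2 went from 107, 112 and 106 CPM to 149, 120 and 164 CPM, which did not overlap either but did not pass the test (0.41 ± 0.17, adjusted p = 0.0861, edgeR).

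By day 6, 12 members were still higher than in untreated resident cells and none lower, against 3.77% of all genes higher and 2.65% lower, with a median log2 change of 0.43. Oas2 measured 6.55, 5.29 and 4.78 CPM in untreated and 80.2, 22.9 and 23.5 CPM in day 6 libraries. Library 1 of day 6 was far above the others and all 3 were above day 0, with a log2 change of 2.93 ± 0.49 (adjusted p = 0.00104, edgeR), and 2.04 without that library. Oasl2 at 82.8, 14.7 and 19 CPM (2.83 ± 0.51, and 1.61 without library 1) and Oas1g at 18.9, 3.59 and 4.9 CPM (2.49 ± 0.54, against 1.16, 2.38 and 1.38 CPM untreated) showed the same order of libraries. The call of Oas1g ended without library 1, where its change was 1.37 (adjusted p = 0.0815), as did that of Irf9 (68.8, 47.7 and 45.7 CPM; 0.66 ± 0.17 with it, 0.43 without), which also ended without untreated replicate 2 or 3 (0.0869 and 0.0921). The other called members were Ifitm2, Ly6e, Oas1a, Ifi204, Zbp1, Sp100, Ifih1 and Dtx3l, at 0.45 to 1.67. Oas2, Oasl2, Ifitm2 and Ly6e stayed called with any 1 of the 6 libraries left out. Of the 12 calls, 7 were kept without untreated replicate 1, where Dtx3l, Ifi204, Ifih1, Sp100 and Zbp1 were lost, and 6 without replicate 2, where Irf9 was lost as well. Without untreated replicate 3, 6 were kept and Dtx3l, Ifi204, Irf9, Oas1a, Sp100 and Zbp1 were lost. Without day 6 library 1, 4 were kept, without library 2 Dtx3l, Ifi204 and Ifih1 were lost, and without library 3 Ifi204 and Zbp1.

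Library 1 of day 6 held the highest value of its group for 40 of 41 members in resident cells (37.9% of all tested genes) and for 39 of 41 in recruited cells (35.7%). Irf7 measured 105, 15.1 and 26 CPM in the resident and 132, 51.7 and 72.1 CPM in the recruited libraries of that day. In both populations library 1 was far above the others. Without resident library 1, 5 members were called against untreated cells, with Oas2, Oasl2, Ifitm2 and Ly6e higher and Rsad2, which was not called with all libraries, lower (-2.34). In that fit 1.79% of all genes were higher and 1.55% lower, so 1 member lower is near the background. Libraries with the same number deviated from their group means together on each day, and what the day 6 libraries numbered 1 share was not tested.

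On day 9 only Ifitm2 passed the test in resident cells against untreated ones, where 1.61% of all genes were higher and 1.88% lower. The libraries lay apart upward for 6 members and downward for 9, against 11.2% and 9.77% of all genes. It measured 25.9, 59 and 21.8 CPM, against 15.7, 10.7 and 13.3 CPM untreated. Library 2 was the highest and the groups did not overlap, with a log2 change of 1.42 ± 0.37 (adjusted p = 0.036, edgeR), without library 2 it was 0.84 (adjusted p = 0.26), and the call also ended without any 1 of the untreated replicates (0.0909, 0.133 and 0.105). By an unadjusted p under 0.05, 8 members differed, for which no all-gene share was computed. DESeq2 called 6, of which 2 were higher (Ifitm2 and Oas2) and 4 lower (Ifit3, Ifitm3, Oasl1 and Rsad2). It called 2.99% of all genes higher and 2.99% lower. Irf7 was at 9.9, 7.76 and 8.48 CPM on day 9 and at 8.21, 8.17 and 8.28 CPM on day 12. All of these 6 libraries were lower than the 3 untreated ones, but neither change passed the test (-1.04 ± 0.60 and -1.13 ± 0.61). On day 12, edgeR called 0 members against 1.1% of all genes higher and 0.206% lower. By an unadjusted p under 0.05, 4 differed, again without an all-gene share. DESeq2 called 1, which was higher, against 2.15% of all genes higher, so this is near the background. The day 12 libraries lay apart upward for 6 members and downward for 10, against 12.2% and 9.01% of all genes. The comparisons of resident cells with untreated ones share the day 0 libraries.

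In recruited macrophages the genes fell from day 3 to each later day, comparisons that share the day 3 libraries. On day 6, 40 of the 41 were lower than on day 3 and none higher, against 16.8% of all genes lower and 15.1% higher, with a median log2 change of -2.45. On day 9, 40 were lower (18% of all genes, with 18.2% higher; median -2.84), and on day 12 all 41 (19.5% of all genes, with 19.8% higher; median -3.06). The later libraries lay wholly below day 3 for 40 members on each of these days and above for 0, against 22.1%, 21.1% and 23.2% of all genes below and 21.4%, 19.6% and 23% above. The gene not called on days 6 and 9 was Ifitm2, at -0.63 ± 0.35 and -0.66 ± 0.35.

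Isg15 fell furthest. It measured 187, 277 and 213 CPM in the recruited libraries of day 3, 7.91, 4.27 and 6.44 CPM on day 6, 1.49, 5.63 and 1.5 CPM on day 9 and 3.77, 2.86 and 1.89 CPM on day 12. None of the later libraries came near day 3, and the log2 changes were -5.17 ± 0.54, -6.33 ± 0.58 and -6.34 ± 0.58 (adjusted p = 5.22e-07, 6.6e-08 and 4.74e-08, edgeR). Rsad2 went from 267, 490 and 251 CPM to 17.9, 5.57 and 12 CPM on day 6, 3.19, 8.33 and 4.12 CPM on day 9 and 7.27, 3.84 and 2.69 CPM on day 12, without overlap (-4.82, -6.03 and -6.22). Ifit1 went from 145, 207 and 143 CPM to 10.2, 2.97 and 5.06 CPM on day 6 and 1.79, 5.03 and 1.42 CPM on day 9 (-4.74 and -5.93). Irf7 fell by 3.07 on day 6, by 5.39 on day 9, at 13, 30.2 and 8.16 CPM, and by 6.07 on day 12, at 17.2, 7.68 and 7.32 CPM. On day 9, library 2 was the highest for Isg15, Rsad2, Ifit1 and Irf7, and without it the changes of Isg15, Ifit1 and Irf7 were -7.21, -6.64 and -6.05. Stat2 and Irf9 fell less, by 1.66 and 1.21 on day 6 and by 1.87 and 1.47 on day 12.

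After day 3 the members divided by how recruited and resident cells compared. On day 6, 7 of 41 were higher and 6 lower in recruited cells, against 16.2% and 18.8% of all genes, so with all libraries these shares are near the background. Without resident library 1, 17 were higher and 1 lower, against 14.4% and 15.6% of all genes, and without the libraries numbered 1 of both populations 10 were higher and 3 lower, against 12% and 12.6%. Within the run of library numbers that holds library 1, the recruited library was the higher for 13 members and the lower for 28, and in the other 2 runs it was the higher for 24 and 30 of 41. On day 6 the libraries lay apart upward for 4 and downward for 3 members, against 23.5% and 26.1% of all genes, on day 9 for 14 and 6 (18.9% and 20%) and on day 12 for 14 and 3 (18.7% and 22%). The counts were 9 and 2 on day 9 (15.5% and 16.4% of all genes) and 9 and 0 on day 12 (12.6% and 14.7%). With a block for libraries of the same day and number, day 9 gave 18 called members, 12 higher and 6 lower, against 19.3% and 20.9% of all genes in that fit, and day 12 gave 11 higher and 2 lower, against 16.2% and 19.2%, the lower ones being Dhx58 and Samhd1. As for patterns over the 4 days, 24 of 41 were higher on day 3 and not called later, 6 were higher on every day, 5 were higher on day 3 and on some later days, and 6 were higher on day 3 and lower on day 6 or 9. Of all 3149 tested genes higher on day 3, 40.7% were not called later, 32.5% were higher on every day, 23.2% on some later days, and 3.08% were lower on day 6 or 9, and the members' shares were 58.5%, 14.6%, 12.2% and 14.6%. Not being called on a later day does not show that the populations were equal then.

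The 6 genes higher on every day were Ifitm3, Ifi44, Usp18, Ifitm2, Sp100 and Bst2. Ifitm3 measured 91, 46 and 44 CPM in recruited against 6.12, 0.326 and 1.61 CPM in resident libraries on day 6, 25.4, 21.8 and 13.9 against 0.252, 0.796 and 0.348 CPM on day 9, and 10.5, 13.4 and 11.2 against 1.4, 1.03 and 0.839 CPM on day 12. No recruited library overlapped a resident one on any day, and the log2 differences were 4.51 ± 0.55, 5.45 ± 0.68 and 3.43 ± 0.61 (adjusted p = 2.15e-06, 3.62e-06 and 0.000288, edgeR). Resident library 1 of day 6 was the highest of its group, and without it the difference was 5.95. Averaged over the 4 days, the difference was 4.40 ± 0.29, the largest of the 41.

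Usp18 measured 22.6, 11.2 and 11.8 CPM in recruited against 6.96, 0.913 and 1.48 CPM in resident libraries on day 6, 10.8, 6 and 5.84 against 1.51, 1.13 and 1.05 CPM on day 9, and 4.94, 6.91 and 5.55 against 1.02, 1.25 and 0.839 CPM on day 12. It was apart on each day, with log2 differences of 2.31 ± 0.48, 2.63 ± 0.54 and 2.50 ± 0.57 (adjusted p = 0.000752, 0.000699 and 0.00232, edgeR). On day 6 the difference was 3.67 without resident library 1, and its call ended when only the 6 libraries of that day were fitted (adjusted p = 0.0624). Ifi44 measured 3.37, 0.836 and 1.66 CPM in recruited and 0.209, 0.0652 and 0.129 CPM in resident libraries on day 6. These did not overlap (3.82 ± 0.62, and 3.20 without recruited library 1), but the resident libraries held 6 counts in all. On days 9 and 12, resident cells held 1 and 2 Ifi44 counts in all, and the recruited to resident ratios were 25.7 (exact 95% counting interval 4.21 to 1060) and 11.3 (2.74 to 99.5). Over the 4 days, 28 members were higher in recruited cells on average and none lower, against 30.3% and 30% of all genes, while the fit with the block gave 30 higher and 1 lower, Samhd1 (31% and 33.8% of all genes), and 4 were apart on each day, Ifitm3, Ifi44, Usp18 and Ifitm2 (8.82% of all genes).

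Ifitm2 measured 115, 106 and 130 CPM in recruited cells of day 6, 93.4, 149 and 101 CPM on day 9 and 131, 77.9 and 83.7 CPM on day 12, against 25.9, 59 and 21.8 CPM in resident cells on day 9 and 50.9, 22 and 24.8 CPM on day 12. It was apart on each day (1.47 ± 0.36, 1.69 ± 0.36 and 1.58 ± 0.36 on days 6, 9 and 12). Bst2 and Sp100 were apart on days 9 and 12 and overlapped on day 6, where Bst2 differed by 0.79 ± 0.27 and Sp100 by 0.74 ± 0.22. Their day 6 calls ended without recruited replicate 1 (adjusted p = 0.0791 and 0.0907), resident replicate 2 (0.14 and 0.071) or resident replicate 3 (0.106 and 0.0557), and that of Bst2 also without recruited replicate 3 (0.0676).

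Of the 5 genes higher on day 3 and on some later days, Oasl2 was called on days 9 and 12, Oas1g on days 9 and 12, Oasl1 on day 9, Rsad2 on day 6 and Ly6e on day 12. Oasl2 measured 38.8, 46.1 and 27.4 CPM in recruited against 8.7, 6.17 and 7.72 CPM in resident libraries on day 9, and 44.4, 36.4 and 31.6 against 8.98, 10.8 and 9.4 CPM on day 12. The libraries were apart on both days (2.31 ± 0.50 and 1.94 ± 0.49, adjusted p = 0.00111 and 0.00517, edgeR). Oasl1 measured 2.69, 8.93 and 4.57 against 0.883, 0.73 and 1.51 CPM on day 9, which were apart as well (2.32 ± 0.80), but its call ended without recruited replicate 2 (adjusted p = 0.149) or without any 1 of the resident replicates (0.0881, 0.0963 and 0.0529). The calls of Oas1g (1.49 ± 0.52 on day 9 and 1.51 ± 0.52 on day 12) ended without any 1 resident replicate of the day, with adjusted p from 0.062 to 0.12, and without recruited replicate 1 or 2. Ly6e on day 12, at 800, 529 and 505 against 434, 375 and 393 CPM (0.61 ± 0.21), was not called without recruited replicate 1 (0.224), resident replicate 2 (0.112) or resident replicate 3 (0.0938). Rsad2 on day 6 overlapped, at 17.9, 5.57 and 12 against 9.32, 1.96 and 2.06 CPM (1.43 ± 0.53), and its call ended without recruited replicate 1 (0.21), recruited replicate 3 (0.0771), resident replicate 2 (0.173) or resident replicate 3 (0.172).

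The 6 genes lower in recruited cells on day 6 or 9 were the RNA helicases Ifih1, Ddx58 and Dhx58, with Samhd1, Stat2 and Ifi35, a cytosolic protein that modulates sensing. Samhd1 measured 455, 448 and 425 CPM in recruited against 743, 620 and 581 CPM in resident libraries on day 6, and 405, 432 and 428 against 563, 542 and 657 CPM on day 9. Every recruited library lay below every resident one, with log2 differences of -0.55 ± 0.13 and -0.48 ± 0.13 (adjusted p = 0.00228 and 0.00757, edgeR). Untreated resident cells had 481, 515 and 512 CPM of Samhd1. Without resident replicate 3 the day 9 adjusted p was 0.0504.

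The other 5 rested on fewer libraries. On day 6, Stat2 measured 118, 77.8 and 92 CPM in recruited and 168, 117 and 115 CPM in resident libraries, which overlapped (-0.47 ± 0.17, adjusted p = 0.0365, edgeR), and on day 9 it measured 87.8, 81.9 and 65.4 against 127, 103 and 98 CPM, which did not (-0.48 ± 0.17, adjusted p = 0.0367). Ifih1 was at 67.1, 55 and 51.7 against 82.2, 77.9 and 68.1 CPM on day 6 (-0.39 ± 0.13), and Ifi35 at 28.3, 25.4 and 21.2 against 40.8, 31.3 and 30.6 CPM (-0.46 ± 0.16), both without overlap. Ddx58 at 75.8, 50.8 and 50.9 against 108, 73.9 and 68.9 CPM (-0.50 ± 0.15) and Dhx58 at 37.8, 26.4 and 27.5 against 63.2, 32.9 and 37.5 CPM (-0.54 ± 0.20) overlapped. Without resident library 1 of day 6, only Samhd1 remained called lower and 17 members were called higher, and the adjusted p of Stat2, Ifih1, Ifi35, Ddx58 and Dhx58 was 0.284, 0.0895, 0.18, 0.178 and 0.46. These 5 calls also ended without recruited replicate 2 (adjusted p from 0.0608 to 0.197) or recruited replicate 3 (0.0757 to 0.135), and that of Ifih1 without resident replicate 2 (0.0553). On day 9 the call of Stat2 ended without resident replicate 1 (0.165) or recruited replicate 3 (0.159).

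**Figure D4:**
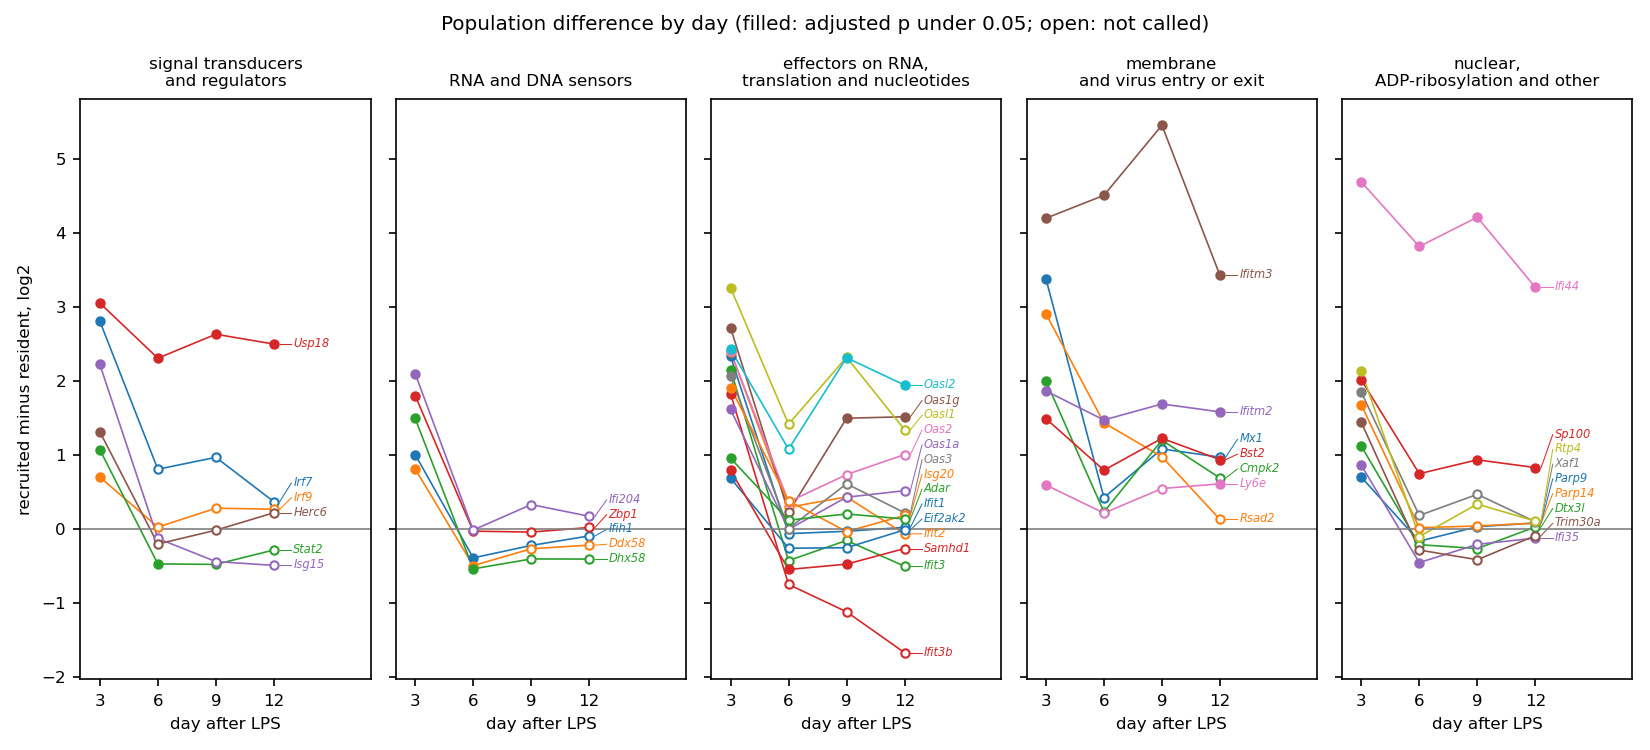
Recruited minus resident difference on the log2 scale (vertical axis) on days 3, 6, 9 and 12 for each of the 41 genes, in 5 panels by role; filled points are called at adjusted p under 0.05 and open points are not. All 41 points of day 3 are filled and above 0, and from day 6 on most points are open while Ifitm3, Ifi44, Usp18 and Ifitm2 stay well above it.

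The population difference itself changed over days in 21 of the 41 genes, against 10.7% of all tested genes. The test was an F test over 3 contrasts (edgeR, adjusted p under 0.05). By an unadjusted p under 0.05 the difference changed in 31, for which no all-gene share was computed. With the block it changed in 31, against 18.3% of all genes. Trim30a, a regulator of receptor signalling, had the smallest adjusted p (5.4e-05), with recruited libraries at 221, 356 and 239 CPM on day 3, 93.4, 64.1 and 69.6 on day 6, 50, 65.1 and 50.7 on day 9 and 77.2, 72.5 and 60.9 on day 12. Resident libraries stayed between 62.3 and 113 CPM on those days, so the populations were apart on day 3 and overlapped on days 6, 9 and 12. Its difference was smaller than on day 3 by 1.73, 1.86 and 1.53 on days 6, 9 and 12. Dtx3l measured 269, 298 and 221 CPM in recruited and 121, 117 and 125 CPM in resident libraries of day 3, and 100, 81.1 and 75.8 against 115, 94.4 and 88.8 CPM on day 6, where the populations overlapped. Dtx3l fell in difference by 1.33, 1.38 and 1.09, Ifih1 by 1.23 and 1.10 on days 9 and 12, and Dhx58 by 2.03, 1.90 and 1.90 on days 6, 9 and 12 (adjusted p = 6.26e-05, 8.45e-05 and 0.00011). For 20 genes no change passed the test, among them Ifitm2, Ifi44, Usp18, Ly6e, Ifitm3 and Bst2 (adjusted p from 0.577 to 0.96 for those named). This does not show that their difference was constant.

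The rest of the pathway was read from lists of its other genes. Of 17 interferon genes in the table, 13 had no count in any library, which allows up to 0.0619 to 0.0766 CPM over the 3 libraries of a group (3 counts, counting error only). Ifnb1, the interferon beta gene, had 2, 4 and 0 counts in recruited libraries of day 3 and 1 count in untreated cells. Ifng, the type II interferon, was the only one tested, at 0.811, 1.41 and 1.09 CPM in recruited and 0.722, 0.167 and 0.0592 CPM in resident libraries of day 3 (1.77 ± 0.72, adjusted p = 0.0515, edgeR). These libraries were apart. On day 6, Ifng had 2, 3 and 2 counts in recruited libraries and 0 in each resident one, and it was called higher on day 6 (adjusted p = 0.0446) and for the mean over days (adjusted p = 0.00722), both on few counts. The first day sampled after LPS was day 3.

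Of 10 genes of the interferon receptors and their kinases, 8 were higher in recruited cells on day 3 and none lower, beside 23.2% of all tested genes higher and 23.5% lower, with a median log2 difference of 1.16. Ifnar1 measured 379, 400 and 389 CPM in recruited and 90.7, 84.2 and 89.8 CPM in resident libraries. The recruited libraries lay far above the resident ones (2.14 ± 0.12, adjusted p = 1.31e-11, edgeR), and Ifnar2 likewise was apart at 224, 220 and 209 against 74.4, 72.1 and 75.3 CPM (1.56 ± 0.09). On day 12 both were still apart, with Ifnar1 at 113, 93.7 and 96.9 against 60.9, 59.3 and 59.3 CPM (0.76 ± 0.12) and Ifnar2 at 109, 90.8 and 90.9 against 49.3, 53.5 and 53.7 CPM (0.89 ± 0.09). Jak2, a kinase used by other cytokine receptors, differed by 2.34 ± 0.15 on day 3. Jak1, a kinase of the receptor, differed by 0.46 and was called. Tyk2, its other kinase, and Irf3, which is activated by phosphorylation, were not called on day 3 (-0.11 ± 0.13 and -0.01 ± 0.15).

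Of 17 genes that sense microbes upstream of interferon, 9 were higher and 1 lower on day 3, beside the same 23.2% and 23.5% of all genes. Tlr9, the DNA receptor of endosomes, differed by 3.65 and Irf5 by 1.33, and the one lower was Mavs, the mitochondrial adaptor of Ifih1 and Ddx58. Mavs measured 46.1, 40.1 and 38.8 CPM in recruited and 131, 130 and 106 CPM in resident libraries of day 3. It was below the resident libraries on each day, with log2 differences of -1.55, -1.50, -1.23 and -0.89 on days 3, 6, 9 and 12. Of 11 tested negative regulators, 7 were higher on day 3 and 0 lower (23.2% and 23.5% of all genes), among them Socs1 at 91.1, 64.2 and 57.3 against 23, 18.1 and 18.3 CPM (1.84 ± 0.28) and Socs3 (1.88). A list of 66 further genes known to respond to interferon had 57 higher on day 3 and 0 lower (23.2% and 23.5% of all genes), with a median of 1.06, led by Ms4a4c (5.52) and Ms4a6b (5.22).

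**Figure D5:**
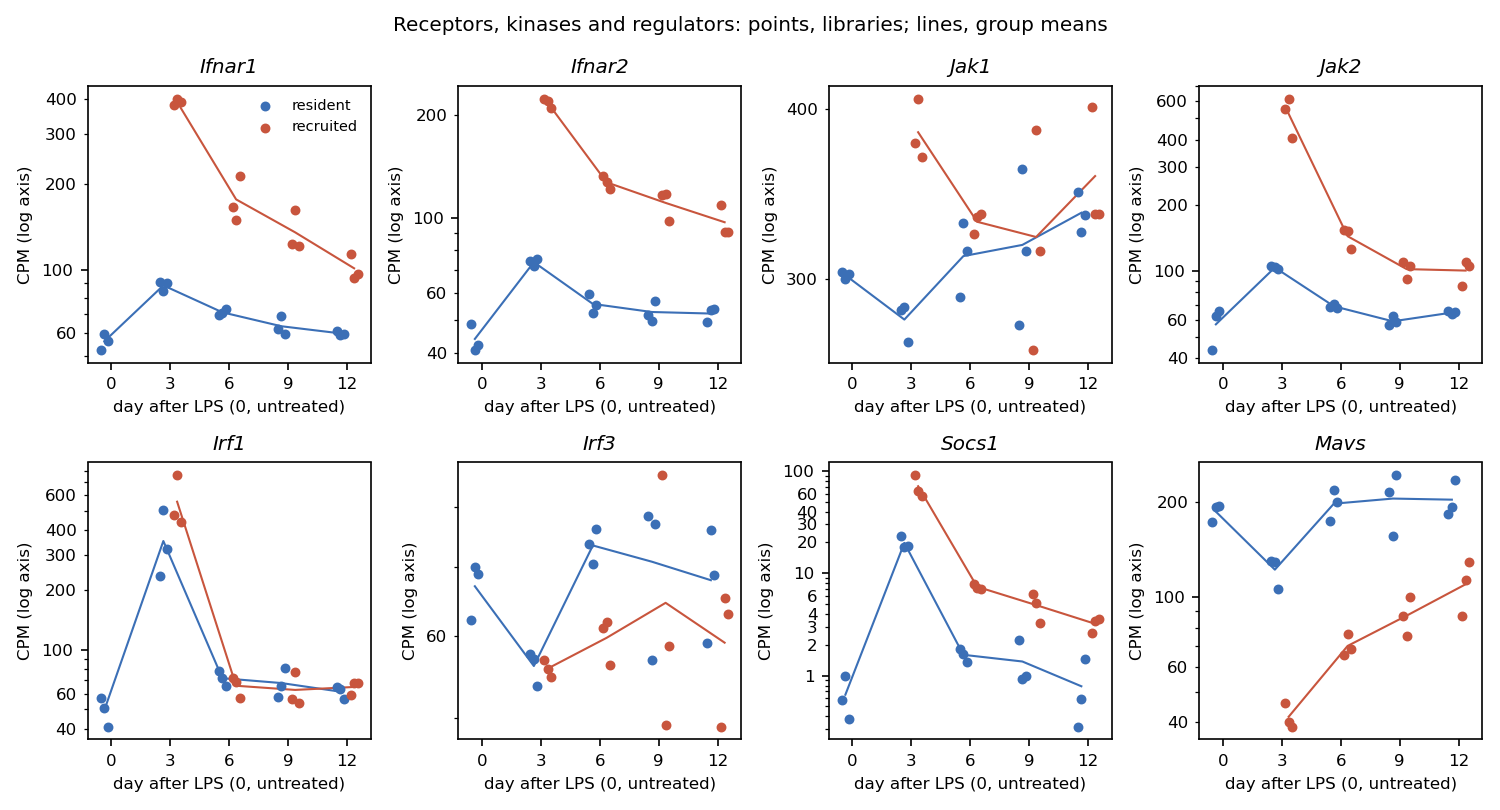
CPM of 8 receptor, kinase and regulator genes in each library (points, log axes) by day, in resident (blue) and recruited (red) macrophages, with lines through the group means. Ifnar1, Ifnar2, Jak2 and Socs1 are apart on each day, Mavs is apart in the other direction, and Irf1 overlaps on each day.

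Markers of other cells were measured beside these results. Genes of plasmacytoid dendritic cells, strong interferon producers, summed to 3.06 to 24.5 CPM over all groups and to 3.06 to 8.04 CPM in recruited cells of day 3. There 6 of the 8 genes held a count. Klk1 and Cd209d were at 0 there, but Cd209d was so in every group and Klk1 in every group except recruited day 6. Neutrophil genes summed to 502 to 1021 CPM in recruited and 215 to 241 CPM in resident libraries of day 3, against 115 to 139 CPM in untreated cells, and 364 to 441 CPM in recruited cells of day 6. Of 8 tested T and NK cell genes, 7 were positive in recruited against resident cells of day 3 with none called higher, and 1 was called lower, Cd2, at 9.73, 2.04 and 1.02 against 140, 79.9 and 79.8 CPM. The list's sum, 5.39 to 27.5 CPM in recruited and 82.4 to 147 CPM in resident libraries of day 3, was mostly Cd2 in the resident libraries. The part of neutrophil RNA in the day 3 levels of the 41 genes was not tested.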

How the data were processed

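The authors deposited a table of raw read counts per gene and a table of unassigned reads, also as counts, for 27 libraries of messenger RNA read on an Ion Proton sequencer, per the labels' protocols. STAR 2.4.0a, HTSeq 0.6.0, DESeq2 1.4.5 and R 3.1.0 are listed in the submitters' processing notes without roles. Neither a strand setting nor a gene annotation release is given in the sources used here. Ambiguous reads are among the unassigned ones, so reads of overlapping genes may be missing from the counts or set to the wrong gene. Groups came from the labels.

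Genes were kept by filterByExpr (minimum count 10, minimum total 15) and fitted over 9 group means with edgeR 4.0.16 (TMM scaling, robust quasi-likelihood test, R 4.3.3), with Benjamini-Hochberg adjustment over all 13599 genes and a threshold of 0.05. An exact permutation test of 3 against 3 libraries cannot go below p = 0.1. The test was tried on simulated counts first. Alternatives were DESeq2 1.42.0, other scalings, no filter, covariates for library number run and reads outside genes, a replicate block, fewer libraries, and each library left out in turn.

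Same-numbered libraries of a day came from no stated common source. All 12 pairs of them deviated together (r 0.166 to 0.518 across genes, which are not independent replicates). The fit as reported did not use this pairing, and only the fits with the replicate block did. The 41 genes and all lists were chosen with earlier results of these data known. Genes given in every library were the largest called changes by role and comparison, the smallest p for the change over days, Irf7, Irf9 and Stat2, and fixed pathway genes. Other genes named, such as Cd2 and those named for leaving out a library or for another tool, were chosen after their values were seen. Results for 1 gene of the pathway are not reported here.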

Additional observations from a re-analysis of the deposited data

Results flagged for a closer look

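The difference between recruited and resident macrophages changed over days 3, 6, 9 and 12 in 21 of the 41 genes, by edgeR's test of the difference itself, against 10.7% of all tested genes. The smallest adjusted p-values were those of Trim30a (5.4e-05), Dtx3l (6.26e-05), Ifih1 (8.45e-05) and Dhx58 (0.00011), which were higher in recruited cells on day 3 and fell towards or below the resident level later.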

How the results depend on the processing

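No called value of a named gene changed sign under the alternatives run, in the comparisons other than the change over days, where the sign was not checked. With 1 library left out, the number of called genes was 26 to 31 for the mean over days, 39 to 41 on day 3, 6 to 18 on day 6 (4 to 17 higher, 1 to 7 lower), 8 to 12 on day 9 (7 to 10 higher, 1 to 3 lower) and 7 to 9 on day 12. In resident cells against untreated ones it was 31 to 38 on day 3, 5 to 12 on day 6, 0 to 1 on day 9 and 0 to 0 on day 12. In recruited cells against day 3 it was 40 to 40 on days 6 and 9 and 40 to 41 on day 12, and for the change over days 14 to 26. The shares of all genes called differed between these fits and are not listed here. With the replicate block, day 9 gave 18 called genes, 6 of them lower, against 20.9% of all genes lower. When only the compared libraries were fitted, day 6 gave 6 (3 higher, 3 lower), against 18.8% and 20.2% of all genes. Day 9 gave 1 lower, against 10.2%. Resident cells gave 7 on day 6, all higher, against 5.91% of all genes. On day 9 they gave 3, of which 1 was higher and 2 lower, against 0.535% and 0.469%. Ifitm2 was not among these 3. Without a filter, 1 was lower on day 9 (8.03% of all genes) and 0 were called in resident cells of day 9 (1.33% of all genes). Resident day 9 gave 2 with library size alone, with reads outside genes as covariate and with the library number run as covariate. The shares of all genes called were 4.65%, 4% and 7.91%. With DESeq2 it gave 6, against 5.98%. Resident day 12 gave 1 with DESeq2 and 1 with the run, against 2.93% and 2.79% of all genes. Without the day 6 libraries numbered 1 of both populations, chosen after seeing the data, 3 were lower on day 6 and resident day 6 gave 5. The cause was not tested. Scaling by library size alone moved the median of all genes to 0.151 and 0.109 (log2) for recruited days 9 and 12 against day 3 and to 0.142 for the change over days, and changed the all-gene calls higher on day 3 from 3149 of 6342 to 2302 of 5970, with 41 of the 41 genes higher in both.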
